A study of Mus musculus with 2 samples.

Results

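The genes for the replication-dependent histones were described in DNase-seq of the mouse left cerebral cortex. The members were all protein-coding genes of the GENCODE M21 annotation of mm10 whose symbols start with Hist1h, Hist2h, Hist3h or Hist4h, which gave 67 of 21911 protein-coding genes. They comprised 6 genes for the linker histone H1 and 18 for H2A, 18 for H2B, 12 for H3 and 13 for H4, the core histones of the nucleosome. Chromosome 13 held 54 members in 2 runs, of 23 genes over 327.0 kb and of 31 genes over 403.0 kb. A further 10 lay within 49.9 kb on chromosome 3 and 2 within 5.76 kb on chromosome 11, and Hist4h4 stood alone on chromosome 6.

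The libraries came from females of B6CASTF1/J, a first-generation hybrid of 2 inbred strains, at postnatal day 4. A single group of 2 libraries was made, named replicate 1 and replicate 2 here, and the labels number their animals separately. The labels name no treatment and nothing was compared between conditions, so values are set beside those of all protein-coding genes and each library is given on its own. DNase I cuts chromatin where DNA is exposed, and regions cut more than their surroundings, DNase I hypersensitive sites (DHSs), mark active promoters and enhancers. A shared DHS is the union of overlapping calls that holds a call of both libraries. Each library has a stricter and a lenient list, and calls are those of the stricter list unless the lenient one is named.

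Replication-dependent histone genes are transcribed mainly in S phase, when new DNA is packed into nucleosomes, and dividing cells are their main source. Their genes usually lack introns, and their mRNAs end in a conserved stem-loop in place of a poly(A) tail. The stem-loop binding protein (Slbp) and the U7 ribonucleoprotein process that end, and Npat and Casp8ap2 gather at the clusters in a nuclear body. Replacement histones, such as H2afz and H3f3a, are made throughout the cell cycle.

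The stem-loop was used to check the name of the gene set, because it defines these mRNAs and was not used to choose them. A hairpin was sought with a stem of 6 pairs that starts with GG and has CT before a loop of 4 bases. Members were searched within 100 bp of annotated transcript ends and of the end of the coding sequence. Other genes were searched within 100 bp of transcript ends alone. The hairpin was found in 65 of 67 members (97%) and in 5 of 21844 other protein-coding genes (0.0229%), so these shares rest on unlike searches. Hist1h2an and Hist2h2be were the members with no match to these letters. The most frequent forms are shown here on the gene's strand in mm10, with the stem in capitals and the loop in lower case. The first form ended 41 members, the second 9 and the third 8.
Hist3h2ba, chr11:58949349-58949364, plus strand: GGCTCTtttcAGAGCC
Hist1h2bl, chr13:21715718-21715733, minus strand: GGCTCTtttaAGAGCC
Hist1h4k, chr13:21750150-21750165, minus strand: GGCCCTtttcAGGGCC
In 65 members the annotated transcript had 1 exon.

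Of the 67 histone genes, 48 (71.6%, exact 95% binomial interval 59.3% to 82.0%) had a shared DHS within 1 kb of a transcription start site (TSS), against 55.7% of all protein-coding genes. In replicate 1 alone 49 members had a promoter call (73.1%), against 57.0% of all protein-coding genes. In replicate 2 alone the count was 54 (80.6%), against 60.2% of all. The interval covers counting error only, and neighbouring members share calls, so they are not independent. By class, 3 of 6 H1 genes, 13 of 18 H2A genes, 15 of 18 H2B genes, 7 of 12 H3 genes and 10 of 13 H4 genes had a shared promoter DHS.

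Other windows, overlaps and strengths gave the members a share between 61.2% and 79.1%. The share was 70.1% within 0.5 kb, against 54.7% of all protein-coding genes, and 79.1% within 2.5 kb, against 57.3%. In the window from 250 bp before to 50 bp after the TSS nearest the start codon it was 68.7%, against 44.8%, and within 1 kb of the start codon 73.1%, against 38.9%. With calls that overlap by at least 50% of both it was 61.2%, against 45.1%, and with the stronger 50% of each list 67.2%, against 50.7%. With the starts of all annotated transcripts it was 71.6%, against 57.1%. In each of these the members' share was above that of all genes. The start codon lies close to the TSS in most histone genes and need not do so in other genes. The shares around the start codon are therefore of unlike places.

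The members were also set beside genes of like base composition. A promoter was taken as CpG-richer where its observed to expected CpG ratio within 500 bp of the TSS was 0.6 or more, and 64 of the 67 members were. Of those 64, 47 (73.4%) had a shared promoter DHS, against 90.5% of all CpG-richer promoters. The members therefore stood above the share of all genes and below that of CpG-richer genes. Of the 3 members that were not CpG-richer, 1 had a shared promoter DHS, against 28.7% of all CpG-poor promoters. Among the 52 CpG-richer members in which at least 90% of the 32-mers of the promoter occur once in the genome, 43 (82.7%) had a shared DHS, against 91.1% of all such genes.

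The authors' signal value of a call is a tag density whose scaling the files do not state, so values are compared within a library only. Each gene was given its strongest promoter call and the percentile of that value among all genes with a promoter call in the same library. The 49 members with a call in replicate 1 had a median signal value of 1.17, with quartiles of 0.957 and 1.56, against 1.56 for the 12496 protein-coding genes with a call. For the 54 members with a call in replicate 2 the median was 2.59, with quartiles of 1.84 and 3.73, against 4.09 for 13187 genes. The median member lay at percentile 28.7 in replicate 1 and 30.7 in replicate 2. For CpG-richer promoters with a call the median percentiles were 57.1 and 58.4. In replicate 1, 12 of 49 members lay above the median gene, and in replicate 2, 13 of 54. Open chromatin in fewer cells and weaker cutting in each cell cannot be told apart in bulk tissue.

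The H4 genes had the highest median signal value of the classes in both libraries. It was 1.81 in replicate 1 (10 genes) and 5.94 in replicate 2 (11 genes), at median percentiles of 62.4 and 69.0. Median signal values of the other classes in replicate 1 were 1.13 for H1, 1.18 for H2A, 0.999 for H2B and 1.13 for H3. In replicate 2 they were 3.06 for H1, 2.39 for H2A, 2.10 for H2B and 2.85 for H3. Of the H4 genes with a call, 8 of 10 in replicate 1 and 8 of 11 in replicate 2 lay above the median gene. Among the other classes 4 of 39 and 5 of 43 did so. All 13 H4 genes were CpG-richer, and CpG-richer promoters with a call had median signal values of 1.71 and 4.86. Of those, 5090 of 8764 in replicate 1 and 5349 of 9027 in replicate 2 lay above the median gene. The classes overlapped, since Hist1h4f and Hist1h4j lay at or under percentile 30.5 in both libraries.

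**Figure D1:**
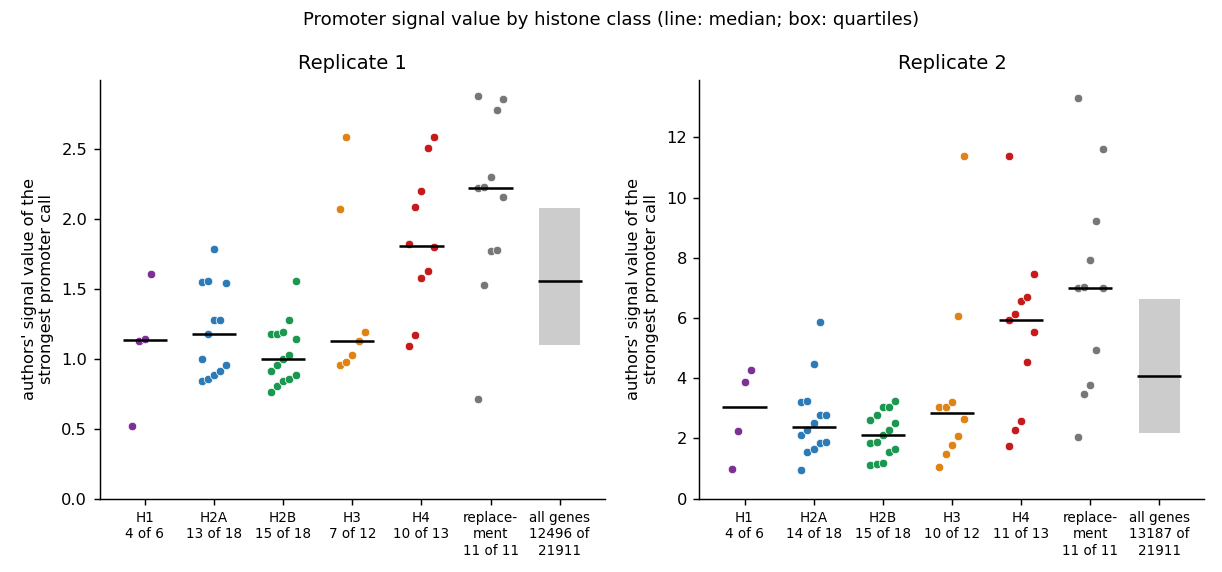
Each point is the authors' signal value of the strongest promoter call of a histone gene, by class and library, on a linear axis that starts at 0 and has its own scale in each library; replacement histones and the quartile box of all protein-coding genes stand on the right, lines are medians, and the count with a call is under each class. H4 genes had medians of 1.81 and 5.94, above those of all genes (1.56 and 4.09), and the medians of the other 4 classes were below them. CpG-richer promoters, which are not drawn, had medians of 1.71 and 4.86.

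Hist1h4a had the highest signal value of all members, 2.59 in replicate 1 and 11.4 in replicate 2, at percentiles 90.1 and 96.0. Hist1h4c followed among the H4 genes with 2.51 and 7.45, at percentiles 88.6 and 80.8, and Hist1h4i had 2.20 and 6.70. All 3 lay at or above percentile 75.6 in both libraries. Outside chromosome 13, Hist4h4 had 2.09 in replicate 1 and 5.54 in replicate 2, and Hist2h4 had 1.63 and 6.13. Hist1h4f had 1.09 and 2.58 and Hist1h4j 1.17 and 2.28, below the median gene of each library. Hist1h4b had a call in replicate 2 alone, with a signal value of 1.76.

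Among the H3 genes, Hist1h3e had 2.07 in replicate 1 and 6.07 in replicate 2, at percentiles 74.3 and 70.2. Hist1h3a was given 2.59 and 11.4, but that call is the one at Hist1h4a and begins 826 bp (replicate 1) or 846 bp (replicate 2) past the start of Hist1h3a. In the window from 250 bp before to 50 bp after its own TSS, Hist1h3a had no call in replicate 1 and one of 0.859 in replicate 2. The other H3 genes with a shared DHS were at or under 1.19 in replicate 1 and 3.06 in replicate 2. Both limits came from calls that were also the strongest of an H2B neighbour, Hist1h2bb for Hist1h3c and, in replicate 2, Hist2h2bb for Hist2h3b. In that same window around their own TSSs, Hist1h3c had 1.03 in replicate 1 and 1.68 in replicate 2, and Hist2h3b had 2.37 in replicate 2.

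The linker histone genes were few and varied. Hist1h1e had 1.61 in replicate 1 and 3.88 in replicate 2, at percentiles 52.4 and 47.6. Hist1h1c had 1.13 and 4.26, at percentiles 26.4 and 52.1. Hist1h1a had 1.14 and 2.24. Hist1h1b had a weak call in each library, 0.523 and 1.00, but the calls did not overlap and so made no shared DHS. Hist1h1t, the linker histone of spermatocytes, had no call in the stricter lists and one of 0.496 in the lenient list of replicate 2.

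Of the H2A genes, Hist2h2aa2 had 1.79 in replicate 1 and 5.87 in replicate 2, and Hist3h2a had 1.54 and 4.47. All other H2A genes with a call were at or under 1.56 and 3.26. No H2B gene lay above the median gene in either library, and the class ran between 0.766 and 1.56 in replicate 1 and between 1.12 and 3.26 in replicate 2. Its highest members by percentile, Hist1h2bg with 1.56 and 2.52 and Hist2h2be with 1.28 and 2.78, took those values from calls that lay nearer to an H2A start.

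Over the 49 members with a call in both libraries, the libraries' signal values on a log2 scale had a Pearson correlation of 0.883 and a Spearman correlation of 0.823. The 49 members rest on 37 distinct pairs of calls, and both libraries come from the same strain and tissue, so the correlation is a description. By class median of the strongest call within 1 kb, H4 was highest and H2B lowest in both libraries. In the window from 250 bp before to 50 bp after the TSS, H4 was again highest in both. H2B was lowest there in replicate 1, at 0.978, but in replicate 2 H3 was lowest, at 1.78 against 1.87 for H2B.

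**Figure D2:**
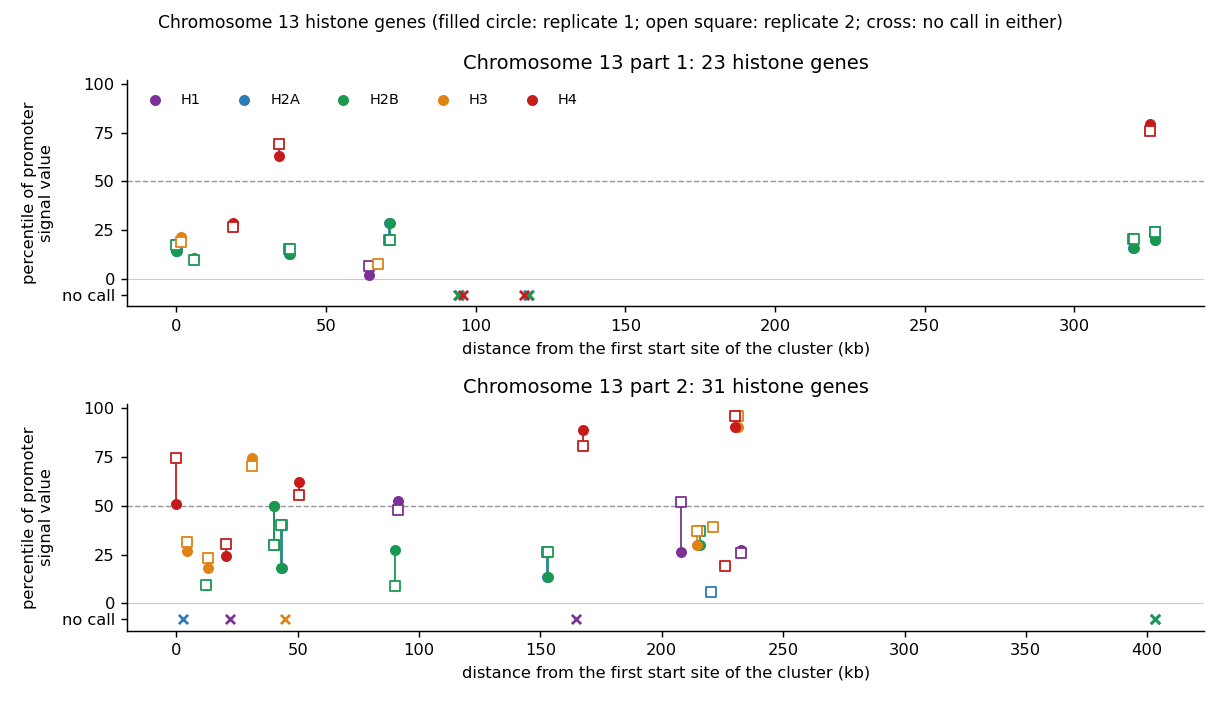
The 23 and 31 histone genes of the 2 runs on chromosome 13 are placed by their distance in kb from the first start site of the run, with the percentile of the promoter signal value in replicate 1 (filled circles) and replicate 2 (open squares) on the vertical axis; lines join the libraries, crosses mark genes with no call in either library, the dashed line is the 50th percentile, and H2A and H2B genes with the same strongest call overlie each other. Hist1h4a and Hist1h3a, which share a strongest call, stood highest, followed by Hist1h4c, and a block of 6 genes in the first run, Hist1h2bq to Hist1h2br, had no call.

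In the first run 15 of 23 members had a shared promoter DHS, and in the second 22 of 31. On chromosome 3 the count was 8 of 10, on chromosome 11 both genes, and on chromosome 6 the single gene. The 9 protein-coding genes that are not histones but start within the runs had a shared promoter DHS in 2 cases (22.2%). The share was 55.7% of all protein-coding genes and 28.7% of CpG-poor ones, and 1 of the 9 was CpG-richer. The 2 with a shared DHS were Zfp184, a zinc finger gene, at 1.99 in replicate 1 and 4.56 in replicate 2, and Pom121l2 at 0.771 and 1.03. The other 7, among them the iron regulator Hfe and 4 solute carriers of the Slc17 family, had no call in either library. In the second run 23 of 26 shared DHSs lay in a member's promoter window, and in the first 11 of 19.

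The 19 members with no shared promoter DHS fell into several kinds, named after their values were seen. The first kind had copied promoters. For each member the 32-mers of the window from 250 bp before to 50 bp after the TSS were looked up in the genome, and the share found once was counted, because reads from identical copies may not be placed. The windows of Hist1h2bq, Hist1h2br, Hist1h2ao and Hist1h2ap had none (0%). Those of Hist1h4m and Hist1h4n had 5.58%, and those of Hist2h3c1 and Hist2h3c2 had 11.9%. Hist1h2bq shared 100% of its 32-mers with Hist1h2br, Hist1h4m 94.4% with Hist1h4n, Hist1h2ao 88.8% with Hist1h2ap, and Hist2h3c2 82.5% with Hist2h3c1. None of these 8 had a shared DHS, and Hist2h3c2 alone had a call, of 1.48 in replicate 2. In the lenient list of replicate 2, Hist1h4m had a call of 0.685 and Hist1h4n one of 0.646. With the lenient lists Hist2h3c2 had a shared DHS, at 0.570 in replicate 1 and 1.48 in replicate 2.

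Some copied windows did have calls. Hist2h2aa2 and Hist2h2aa1, with 11.9% and 26.8% of their 32-mers found once, had shared DHSs, and so did Hist1h4k and Hist1h4j with 58.4% and 66.9%. Of the 12 members under 90% by this measure 4 (33.3%) had a shared promoter DHS, and of the 55 at or above it 44 (80.0%), against 62.0% of all protein-coding genes at or above it. Over all protein-coding genes together the share was 55.7%, so genes under 90% had a lower share in general too. That share was not counted, and the 33.3% has no like share beside it. How reads with several matches were treated is not given in the sources used here, and the part of copying in these absences was not tested.

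The second kind comprised the testis genes. Hist1h2ba and Hist1h2aa, the H2B and H2A forms of male germ cells, have 305 bp between their starts at the far end of the second run, and they had no call in the stricter or lenient lists. No base of their 300 bp windows, or of that of Hist1h1t, had a false discovery rate of the cut rate under 0.05 in either library, although 100% of the 32-mers in each window were found once. Of 7 further histone genes of the germ line or linked to it, such as H1fnt and H2bfm, none had a shared promoter DHS. The share was 55.7% of all protein-coding genes and 28.7% of CpG-poor ones. Of these 7 genes, 1 was CpG-richer, and 4 had at least 90% of the 32-mers of the window found once.

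The third kind comprised genes whose call depended on the annotated start, the list or the library, with Hist1h1b and Hist1h4b, given above, among them. The annotated TSS of Hist1h1d lies 1828 bp from its start codon, and within 1 kb of the start codon it had a shared DHS, at 0.757 in replicate 1 and 1.59 in replicate 2. Hist1h2af and Hist1h3d had no call in the stricter lists and one in both lenient lists, with 0.616 and 1.29 for Hist1h2af and 0.602 and 0.851 for Hist1h3d. In replicate 2 alone, Hist1h2ab had 0.953, Hist1h3i 1.06 and Hist1h3b 3.20. With the lenient lists, 56 of 67 members (83.6%) had a shared promoter DHS, against 61.5% of all protein-coding genes. Hist1h2be also has a distant annotated TSS, 35138 bp from its start codon, where its call was 1.14 and 1.12; near the start codon it was 0.859 and 1.86.

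**Figure D3:**
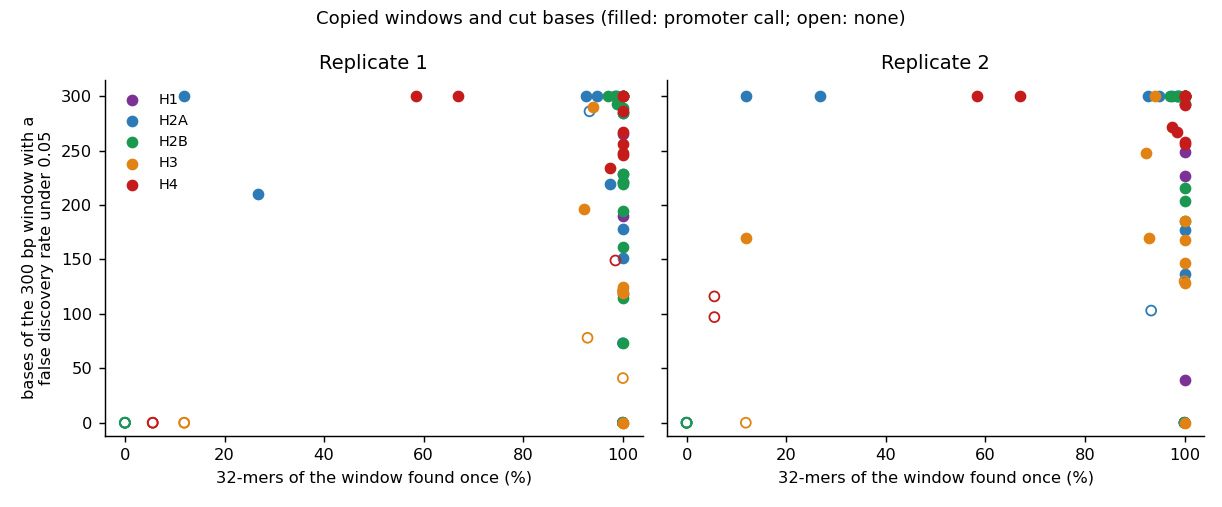
For each of the 67 histone genes in each library, the share of 32-mers of the promoter window found once in the genome (horizontal, %) is plotted against the bases of that 300 bp window with a false discovery rate of the cut rate under 0.05 (vertical); filled points have a promoter call within 1 kb and open points have none. Genes at 0% on the horizontal axis were also at 0 bases, and the 2 H2A genes at 11.9% and 26.8% reached at least 210 bases.

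H2A and H2B genes lie head to head. The members formed 13 divergent pairs with starts within 1 kb of each other, of which 12 paired an H2A with an H2B gene, and in those the gap between the starts was 175 to 305 bp with a median of 273 bp. In 9 of the 12 pairs both genes had a shared DHS, and in all 9 the strongest call of both genes was the same interval in each library. The other 3 were 2 copied pairs and the testis pair. The 1 kb windows of starts this close overlap for most of their length, so a common strongest call follows largely from the windows. For Hist2h2ac and Hist2h2be it was the call at Hist2h2ab, which begins 720 bp past the start of Hist2h2ac. In the window from 250 bp before to 50 bp after the TSS, both genes had 1.04 in replicate 1 and 1.85 in replicate 2. Of the 47 distinct shared DHSs in member windows, 18 served 2 or 3 members, which together made up 27 of the 48 genes with one.

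The calls of the 9 pairs were placed unevenly between the starts. In replicate 1 no pair had both starts inside a call, 7 had 1 start inside and 2 had neither. In replicate 2, 5 pairs had both starts inside, 3 had 1 and 1 had neither. The midpoint lay in a call in 4 pairs in replicate 1 and in 5 in replicate 2. Calls of 2 or more intervals at the pair, counted with 300 bp on either side, occurred in 3 pairs in replicate 1 and in 5 in replicate 2. The call that touched the core window had its median midpoint at -44 bp from the TSS in H2A genes in both libraries. In H2B genes it was at -153 bp in replicate 1 and -154 bp in replicate 2.

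The span between Hist1h2ag and Hist1h2bj is shown as an example, on the plus strand of mm10, with Hist1h2ag transcribed to the left and Hist1h2bj to the right. Capitals mark matches, on either strand, to CCAAT, to the E2F letters TTTNGCGC and to GGTCC.
Hist1h2ag to Hist1h2bj, chr13:22042945-22043213: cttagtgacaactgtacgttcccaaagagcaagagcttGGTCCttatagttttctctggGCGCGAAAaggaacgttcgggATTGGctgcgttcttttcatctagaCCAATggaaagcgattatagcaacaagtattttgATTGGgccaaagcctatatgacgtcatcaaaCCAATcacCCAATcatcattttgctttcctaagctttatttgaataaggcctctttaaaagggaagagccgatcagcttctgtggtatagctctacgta
The call of replicate 1 ran from 22042924 to 22043147 with a signal value of 0.999, and that of replicate 2 from 22042901 to 22043140 with 2.10. All 5 CCAAT matches and the E2F letters lay inside the call in both libraries. Counted from 1 at the left end, a footprint, a short run protected from cutting inside a cut region, lay at bases 65 to 83 in replicate 1 and 63 to 90 in replicate 2. It touched the E2F letters at 60 to 67 and the CCAAT match at 81 to 85. The span of a copied pair with no call is shown beside it, also on the plus strand, with the same letters in capitals.
Hist1h2bq to Hist1h2ao, chr13:21810172-21810464: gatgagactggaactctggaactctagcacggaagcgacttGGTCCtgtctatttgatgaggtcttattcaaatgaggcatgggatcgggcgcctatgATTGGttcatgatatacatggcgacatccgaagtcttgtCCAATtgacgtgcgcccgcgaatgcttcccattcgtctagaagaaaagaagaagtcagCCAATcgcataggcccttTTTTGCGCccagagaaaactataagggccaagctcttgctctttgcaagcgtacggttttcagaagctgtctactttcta
It holds 3 CCAAT matches, the E2F letters and GGTCC, and no footprint was listed there in either library.

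Around the start sites the classes differed in where calls lay. Start sites are the annotated ones, which in some members, such as Hist1h4k, are the first base of the start codon. At 100 bp before the TSS, 80.0% of the 10 H4 genes with a shared DHS were inside a call in replicate 1, and 100% in replicate 2, against 59.3% and 62.2% of all genes with one. At 300 bp before it 2 of the 10 H4 genes in replicate 1 and 1 in replicate 2 were inside a call. The shares there were 40.0% and 73.3% of the 15 H2B genes, and 26.2% and 19.5% of all genes with a shared promoter DHS. The TSS of 48 histone genes lay in a call in 56.2% of cases in replicate 1 and 70.8% in replicate 2, against 63.5% and 64.2% of all genes with a shared promoter DHS. The start codon, which in histone genes follows closely, lay in a call in 66.7% and 77.1% of cases, against 37.7% and 31.3%. The end of the coding sequence did so in 4.17% and 6.25%, against 1.85% and 1.89%.

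**Figure D4:**
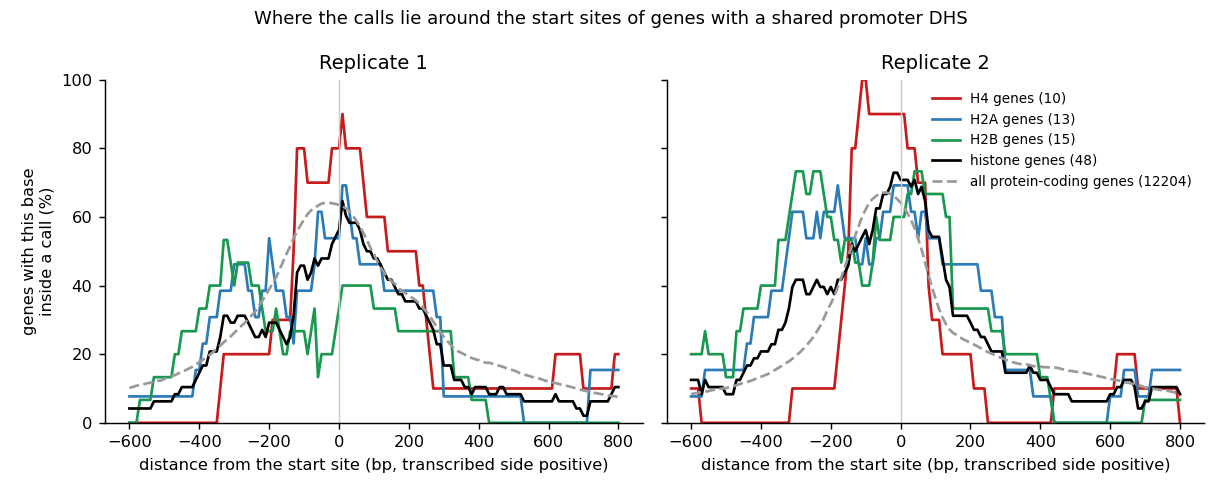
The share of genes whose base at each distance from the TSS (bp, transcribed side positive) lies inside a call is shown for genes with a shared promoter DHS in each library; the number of genes is in the legend. Calls of H4 genes gathered just before and over the TSS, at 80.0% and 100% of genes 100 bp before it. Those of H2A and H2B genes were spread over both sides of the TSS. At 300 bp before it the shares in replicates 1 and 2 were 46.2% and 61.5% (H2A) and 40.0% and 73.3% (H2B). At 100 bp after it they were 46.2% and 53.8% (H2A) and 33.3% and 66.7% (H2B).

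Letters of known promoter elements were counted on both strands of the 300 bp windows, from 250 bp before to 50 bp after the TSS. In some members, such as Hist1h4k and Hist1h2ba, the annotated TSS is the first base of the start codon. Their windows therefore end inside the coding sequence. CCAAT, bound by NF-Y, was present in 56 of 67 members (83.6%), against 37.0% of all protein-coding promoters. All 18 H2A and all 18 H2B genes held it, 11 of 12 H3 genes, 5 of 6 H1 genes and 4 of 13 H4 genes. TATAAA, bound by the TATA-binding protein, was present in 37 members (55.2%), against 13.4% of all. GGTCC, the core of the element that the H4 activator HINFP binds, was in 13 of 13 H4 windows, against 46.8% of all. In the 100 bp before the TSS it was in 12 of 13, against 19.4% of all. In the 300 bp before the start codon GGTCC was in 13 of 13 H4 genes, against 45.4% of all. CCAAT was there in 58 members (86.6%), against 32.9% of all.

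The counts of longer letters also differed between classes. The octamer ATTTGCAT, bound by POU2F1, was found in 7 H2A and 8 H2B windows and in no window of the other classes, against 1.73% of all promoters. The E2F letters were found in 7 H2A and 7 H2B windows and in none of the others, against 1.55% of all. A divergent pair shares much of its window, so these counts are not independent. AAACACA, the H1 box, was in 4 of 6 H1 windows, in 3 H2B windows, 1 H2A window and 1 H3 window and in no H4 window, against 6.55% of all. GGGCGG, bound by SP1-like factors, was in 10 of 13 H4 windows and in 31 of 67 members (46.3%), against 42.8% of all promoters and 72.8% of CpG-richer ones. The H4 share, 76.9%, was near that of CpG-richer promoters, and the share of all members was below it. Of CpG-richer promoters, 36.0% held the CCAAT box, 5.65% the TATA box, 56.5% the HINFP letters, 1.38% the octamer, 2.76% the E2F letters and 3.22% the H1 box. The absence of these letters from a window says nothing of factors that bind other letters.

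**Figure D5:**
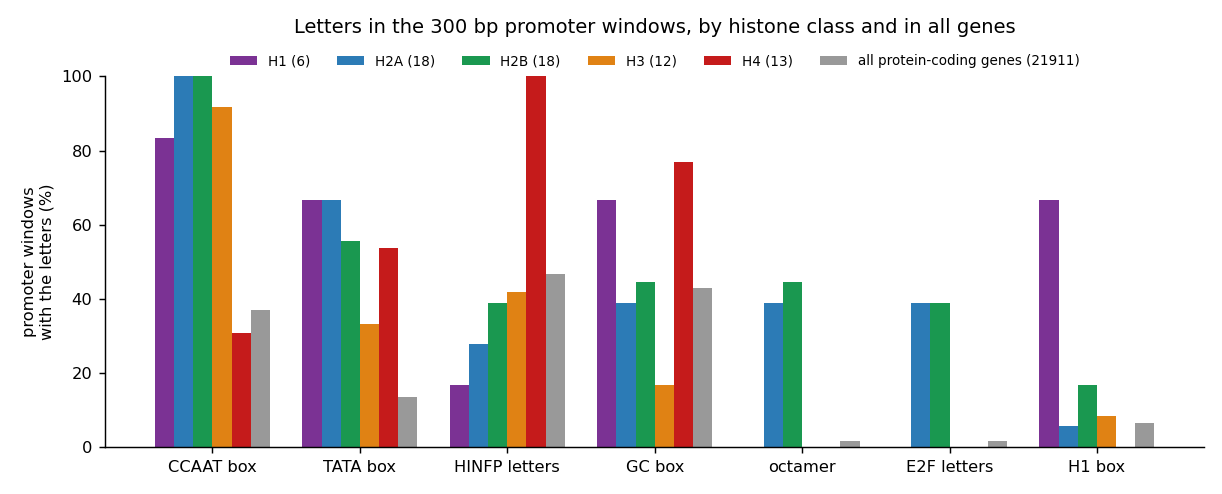
Bars give the share of 300 bp promoter windows with each set of letters on either strand, for the 5 histone classes and all 21911 protein-coding genes on the right of each group. CCAAT reached 100% in H2A and H2B and 30.8% in H4, and GGTCC (HINFP letters) reached 100% in H4, against 46.8% of all genes.

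The windows of 5 members show these arrangements. All are in mm10 and on the gene's strand, with base 251 as the TSS and the searched letters in capitals on either strand, so that GGACC stands for GGTCC and ATTGG for CCAAT. Hist1h4a had the strongest call, and Hist1h4k is an H4 gene with TATAAA beside GGTCC.
Hist1h4a, chr13:23761181-23761480, minus strand: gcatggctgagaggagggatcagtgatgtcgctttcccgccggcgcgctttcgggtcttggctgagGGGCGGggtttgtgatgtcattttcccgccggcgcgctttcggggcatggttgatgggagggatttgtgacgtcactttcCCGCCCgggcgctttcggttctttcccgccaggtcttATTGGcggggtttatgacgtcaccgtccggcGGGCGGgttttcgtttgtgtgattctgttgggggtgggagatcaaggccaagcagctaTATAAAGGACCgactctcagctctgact
Hist1h4k, chr13:21750456-21750755, minus strand: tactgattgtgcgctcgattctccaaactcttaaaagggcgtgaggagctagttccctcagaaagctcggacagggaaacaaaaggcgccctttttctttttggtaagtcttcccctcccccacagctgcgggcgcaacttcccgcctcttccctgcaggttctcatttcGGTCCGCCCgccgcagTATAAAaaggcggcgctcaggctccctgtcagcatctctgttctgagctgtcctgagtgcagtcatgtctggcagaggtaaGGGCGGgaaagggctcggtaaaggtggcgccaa
In Hist1h4a the call ended at -91 bp from the TSS in both libraries. The letters TATAAAGGACC at bases 273 to 283 lay outside it, and a footprint at 261 to 286 in replicate 1 and 262 to 286 in replicate 2 covered them. These letters lie past the annotated TSS of Hist1h4a, which is 73 bp from its start codon. Whether transcription begins at that annotated TSS was not tested, so distances from it are those of the annotation. In Hist1h4k GGTCC and the reverse of GGGCGG overlap by 2 bases, and a footprint at 168 to 199 in replicate 2 covered both and the TATAAA at 187 to 192. In replicate 1 the footprint at 178 to 196 covered the TATAAA and not GGTCC. For Hist1h4k the signal value was 1.82 in replicate 1 and 5.94 in replicate 2.

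Hist1h3e is shown for its 4 CCAAT matches, and Hist1h1c for its H1 box and CCAAT.
Hist1h3e, chr13:23562320-23562619, minus strand: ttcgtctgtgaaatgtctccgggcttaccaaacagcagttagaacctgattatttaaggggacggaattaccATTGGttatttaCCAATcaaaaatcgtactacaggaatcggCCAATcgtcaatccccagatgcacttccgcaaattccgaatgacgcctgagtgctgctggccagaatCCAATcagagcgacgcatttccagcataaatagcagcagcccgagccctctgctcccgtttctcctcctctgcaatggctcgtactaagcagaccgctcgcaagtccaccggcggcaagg
Hist1h1c, chr13:23738558-23738857, plus strand: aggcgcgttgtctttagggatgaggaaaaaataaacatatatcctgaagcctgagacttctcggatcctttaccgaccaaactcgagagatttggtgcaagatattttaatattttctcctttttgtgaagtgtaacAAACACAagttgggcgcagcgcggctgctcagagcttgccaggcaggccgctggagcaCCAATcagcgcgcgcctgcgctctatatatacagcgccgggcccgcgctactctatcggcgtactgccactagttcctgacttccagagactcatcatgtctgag
In Hist1h3e the CCAAT match nearest the TSS, at 181 to 185, lay inside the call and inside a footprint in both libraries, at 177 to 192 in replicate 1 and at 166 to 192 in replicate 2. The other 3 were outside the call in replicate 1. In Hist1h1c the H1 box at 138 to 144 lay outside the calls, and CCAAT at 196 to 200 lay inside the call of replicate 2 alone. Hist1h2ba, the testis H2B gene, is shown because it has these elements and no call.
Hist1h2ba, chr13:23934107-23934406, minus strand: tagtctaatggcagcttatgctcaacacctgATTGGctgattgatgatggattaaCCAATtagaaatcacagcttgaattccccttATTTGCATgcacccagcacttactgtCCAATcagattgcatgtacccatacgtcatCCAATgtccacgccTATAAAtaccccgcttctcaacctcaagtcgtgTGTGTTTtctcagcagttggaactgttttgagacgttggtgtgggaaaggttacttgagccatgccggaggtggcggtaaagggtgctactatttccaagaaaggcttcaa
Its window holds TATAAA, 4 CCAAT matches, the octamer and, on the other strand, the H1 box.

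The promoter calls of the members held 137 footprints in 52 calls in replicate 1, which is 1.05 per 100 bp, against 0.841 in the promoter calls of all genes. In replicate 2 they held 225 in 66 calls, 1.39 per 100 bp, against 1.31. Of the members' footprints, 64.2% in replicate 1 and 39.6% in replicate 2 overlapped one of the other library, against 58.7% and 37.5% in all promoter calls. Of the 14 GGTCC matches of H4 genes that lay in calls in replicate 2, 10 (71.4%) had 50% or more of their bases in a footprint, against 21% of all such matches in promoter windows. In replicate 1 it was 1 of 8 (12.5%), against 10.8%. Of the members' 10 octamer matches, 0 lay in a call in replicate 1 and 3 in replicate 2, and none of those was in a footprint.

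By median signal value the histone genes, at 1.17 in replicate 1 and 2.59 in replicate 2, were below those of the replacement histones, 2.22 and 7.00. All 11 replacement histones had a shared promoter DHS, at median percentiles of 80.2 and 77.9. All 11 were CpG-richer, and 90.5% of all CpG-richer promoters had a shared DHS. H2afz, a replacement H2A, had 2.88 and 11.6, and H2afx, the H2A form phosphorylated at DNA breaks, had 2.30 and 7.94. H3f3a and H3f3b, which encode the same replacement H3 protein, had 2.16 and 7.04, and 2.22 and 7.00. H1f0, the linker histone of resting cells, had 2.23 and 7.00. Cenpa, the centromeric H3, was lowest with 0.710 and 2.06. The median CpG ratio was 0.879 for the 67 histone genes and 0.910 for the replacement histones.

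All 13 genes for the making and processing of histone mRNA had a shared promoter DHS. Npat had 2.64 in replicate 1 and 13.1 in replicate 2, Casp8ap2 had 2.77 and 9.16, Slbp had 2.81 and 7.24, and Hinfp had 2.06 and 8.43. All 8 histone chaperones and 18 of 20 S phase genes had a shared promoter DHS. The share was 55.7% of all protein-coding genes and 90.5% of CpG-richer ones. Of the 13 genes 11 were CpG-richer, as were all 8 chaperones and 17 of the 20 S phase genes. Pcna, the replication clamp, had 2.01 and 7.00, and the helicase subunit Mcm2 had 1.68 and 4.21. E2f2 and Tk1 were the S phase genes with a call in replicate 2 alone.

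The labelled tissue was checked against markers. Among genes of cortical neurons, Tbr1 had a shared promoter DHS, and Emx1, Bcl11b and Neurod6 had a call in replicate 2 alone. Olig1 and Pdgfra did among 4 glial genes and both genes of dividing cells, Mki67 and Top2a, did. None of 7 markers of microglia, blood, testis and liver had one. The share was 55.7% of all protein-coding genes, 90.5% of CpG-richer ones and 28.7% of CpG-poor ones. Both genes of dividing cells and 1 of the 4 glial genes were CpG-richer, and none of the 7 other markers was. These counts therefore do not separate tissue from CpG class. Replicate 1 held 59355 calls and 153911 footprints, and replicate 2 held 46566 and 224652. The number of reads behind them is not given in the sources used here, so no depth can be set beside a single value.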

How the data were processed

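DNase-seq was measured in the left cerebral cortex of 2 female mice. Per the file headers, mm10 is the build, and each library was processed by itself, without pooling. The aligner is not given in the sources used here, nor are the callers. Each library has 2 peak lists that carry the authors' signal value, a tag density of unstated scaling, one file of the authors' false discovery rates (q-values) of the cut rate, listed under 0.05, and a footprint file that carries 0.01 on every line, taken as a threshold. The shorter peak list was used as the stricter one.

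Genes and start sites came from the GENCODE M21 basic annotation, and sequence from the mm10 genome, whose 21 chromosomes are of 1 strain, so the alleles of the hybrid were not told apart. A promoter call overlaps, by 1 bp or more, the window of 1 kb to either side of any basic TSS of a gene. Positions, motif windows and 32-mers use the TSS nearest the start codon, and members of a run are no more than 500 kb apart. In some members that annotated TSS is the start codon itself. Positions, motif windows and gaps between starts then refer to the codon. A footprint counts in a call that holds its midpoint. No test was run, because there is 1 group; binomial intervals are exact (Clopper-Pearson, 95%). The members and lists were chosen with earlier results of these data known. Named members were the 2 of each class with the highest mean percentile, the first 2 without a call, those with a call in 1 library, and fixed genes; the others were named after their values were seen. Counting code was checked on simulated intervals and sequences. Python 3.11.15, numpy 2.4.6, pandas 2.3.3 and scipy 1.17.1 were used. Alternatives were other windows, lists, overlaps, anchors and each library alone. Some markers of the tissue are not reported here.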

Additional observations from a re-analysis of the deposited data

How the results depend on the processing

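The share of histone genes with a shared promoter DHS was 71.6%. It was 83.6% with the lenient lists, 79.1% within 2.5 kb, 61.2% where calls had to overlap by 50% of both, and 80.0% among members with 90% or more of their 32-mers found once; with either library alone it ranged from 73.1% to 80.6%. The median percentile of the members' signal value, averaged over the libraries, was 29.7. It was 34.2 with the lenient lists, 26.8 within 0.5 kb, 33.2 within 2.5 kb and 33.2 for the call nearest the TSS, and 26.5 in the core window, a setting chosen after seeing the data. For the classes other than H4 it was 26.3, against 29.5 with the lenient lists, 22.9 within 0.5 kb, 31.0 within 2.5 kb and 27.8 for the nearest call. Settings chosen after seeing the data gave 22.3 in the core window, 26.1 around the start codon and 24 for members with 90% or more of their 32-mers found once. For H4 genes it was 65.7 and ran from 62.4 to 70.2 over all settings, above the other classes in each. In the 100 bp before the TSS, CCAAT was in 61.2% of members in place of 83.6% and TATAAA in 34.3% in place of 55.2%. In each case the cause was not tested. No paired analysis was possible because there is 1 group and no test between groups. Depth is unknown, so a missing call does not show a closed promoter.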
